A study of Rattus norvegicus with 48 samples.

Results

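A set of 10 genes that move, store and sense iron was followed in rat retina and posterior eye: Tf, Tfrc, Fth1, Ftl1, Slc40a1, Slc11a2, Cp, Heph, Aco1 and Ireb2. Their rows were taken by gene symbol, 10 of the 32883 genes in each count table. Tf was chosen by its measured counts in retina, where its change after ovariectomy differed between young and aged animals, and the others were added for their known roles. The retina difference of Tf between the ages, and the contrasts that make it up, are therefore given as values without a p.

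RNA was sequenced from 24 female Long-Evans rats, each giving 1 library of retina and 1 of posterior eye, the layers behind and around the retina. Ovariectomy (OVX) removes the ovaries, the main source of oestrogen, and sham surgery leaves them in place. Each surgery was done in 2 age classes, called young (3 to 4 months) and aged (9 to 10 months, middle-aged in the submitters' wording), which makes 4 groups of 6 animals. The labels name no transgene and no hormone treatment. Animals were numbered in group order, so group and any effect of handling order cannot be told apart. Total counts were 12916146 to 30737547 in the retina libraries and 11470945 to 22971367 in those of posterior eye. Retina libraries carried their defining rod markers evenly (summed level 78836 to 95680 CPM, counts scaled to a common library total), whereas rod markers in posterior eye libraries ranged from 65.4 to 31003 CPM. Posterior eye libraries also held pigment epithelium (Rpe65, its visual cycle isomerase, 293.5 ± 94.1 CPM, SD, n = 24), fibroblast (Col1a1 1780 ± 746 CPM) and skeletal muscle RNA, so they were mixed tissue. Retina libraries were uneven in other markers. Their lens markers summed to 3260 to 57956 CPM, pigment epithelium markers to 177 to 773 and melanocyte markers to 35.8 to 128.

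Iron circulates bound to transferrin, the product of Tf, and cells take it in through the transferrin receptor, Tfrc. Slc11a2 (DMT1) carries the released iron out of the endosome, ferritin made of Fth1 and Ftl1 chains stores it, and Slc40a1 (ferroportin) exports it with the help of the ferroxidases Cp (ceruloplasmin) and Heph (hephaestin). Aco1 and Ireb2 encode the iron regulatory proteins, which bind iron-responsive elements in ferritin and Tfrc mRNAs and so set storage against uptake. In the eye the pigment epithelium is a known site of transferrin synthesis and, with the retinal vessels, forms the barrier across which iron reaches the photoreceptors.

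The promoters of the carrier and its receptor are shown because these genes differed in opposite directions between the tissues, as described further on. Each is the 250 bases before the transcription start on RefSeq build GRCr8, read 5′ to 3′ on the gene's own strand. The Tf window lies at chr8:112695377-112695626 on the minus strand and the Tfrc window at chr11:81690319-81690568 on the minus strand. Capitals mark TATAAA in Tf and ACGTG, the core of the hypoxia response element, in Tfrc.
Tf: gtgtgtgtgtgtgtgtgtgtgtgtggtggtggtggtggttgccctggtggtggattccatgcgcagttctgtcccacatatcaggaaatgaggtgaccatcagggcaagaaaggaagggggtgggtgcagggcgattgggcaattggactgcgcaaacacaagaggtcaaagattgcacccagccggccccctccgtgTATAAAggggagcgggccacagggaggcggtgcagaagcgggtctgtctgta
Tfrc: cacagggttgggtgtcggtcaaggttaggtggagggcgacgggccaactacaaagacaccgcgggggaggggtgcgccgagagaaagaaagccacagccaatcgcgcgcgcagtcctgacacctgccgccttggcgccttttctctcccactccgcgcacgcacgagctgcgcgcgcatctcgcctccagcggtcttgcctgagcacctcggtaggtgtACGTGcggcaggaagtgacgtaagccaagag
The TATAAA of Tf began 52 bases before the start site and the ACGTG of Tfrc 31 bases before it. RefSeq windows were matched for 8 of the 10 genes, 9 windows in all, and both strands were searched. TATAAA was present in 12.9% of 33469 rat promoter windows of this length, and among the matched genes in Tf and Cp. ACGTG was present in 16.6% of windows and among these genes in Tfrc only. The palindromic oestrogen response element was in none of the 9 windows and in 0.0239% of all windows, and CACGTG, which contains ACGTG, was in none and in 5.59%.

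Of the 10 genes, 8 passed the filter on low counts in each tissue. Fth1, the ferritin heavy chain, and Slc40a1, the iron exporter, were listed at 0 in all 48 libraries. Fth1 is used by every cell, so its 0 is not read as absence of expression, and no level or change is given for either gene. The limit that a count of 0 allows, 3 counts, corresponded to 0.0976 to 0.232 CPM in retina and 0.131 to 0.262 CPM in posterior eye, and covers counting error only. Ftl1, the ferritin light chain, had 5 to 66 counts per retina library and 37 to 124 per posterior eye library. Ferritin genes have near-identical copies in the genome, and no other gene listed in either tissue had a symbol starting with Fth1 or Ftl1. How reads were assigned among the copies is not known here, so Ftl1 values are uncertain.

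Tf was chosen by its retina values, where OVX animals were above sham animals when young and below them when aged. Its difference between the ages there was the largest fitted difference among the OVX and age contrasts of these genes, a rank the choice favours. In young sham retinas Tf ran from 217 to 453 CPM with a median of 272. In young OVX retinas it ran from 274 to 537 CPM with a median of 465. All 6 young OVX retinas were above the young sham median and 3 were above every young sham retina, while the ranges overlapped. Aged sham retinas ran from 311 to 811 CPM with a median of 350, and aged OVX retinas from 189 to 302 CPM with a median of 220. Here the ranges did not overlap: all 6 aged OVX retinas lay below the lowest aged sham retina. The choice of Tf by its retina values favours such a separation. Its share over all genes is not given here, so it is a description only. Group means were 292 ± 83.3, 447 ± 91.8, 427 ± 191 and 227 ± 42.3 CPM (SD, n = 6), in the order young sham, young OVX, aged sham, aged OVX.

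**Figure D1:**
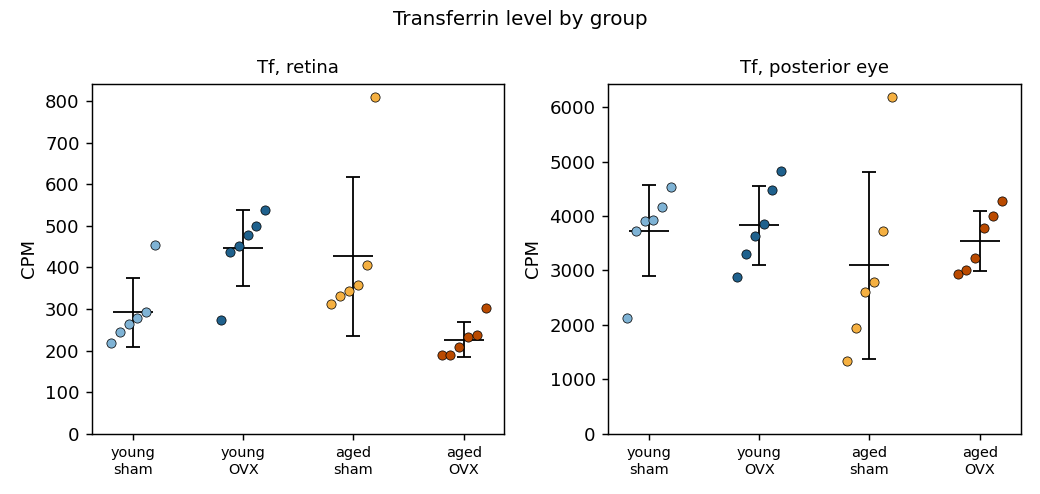
Transferrin (Tf) level in CPM (y axis, from 0) in every library of retina (left) and posterior eye (right), by group (x axis, 6 libraries each); bars give the mean and SD. In retina, whose values chose Tf, the aged OVX libraries sit at 189 to 302 CPM, below all aged sham libraries, and 1 aged sham library stands at 811 CPM.

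As log2 fold changes with approximate standard errors, OVX minus sham was 0.62 ± 0.21 in young retina, a 1.53-fold higher level, and -0.91 ± 0.21 in aged retina, a 1.88-fold lower level. The difference between these changes was -1.53 ± 0.29. Seen along the other axis, aged minus young was 0.55 ± 0.21 in sham and -0.98 ± 0.21 in OVX retinas. The remaining 7 genes had differences between the ages of -0.64 ± 0.52 for Ftl1 to 0.16 ± 0.09 for Tfrc.

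Pigment epithelium markers moved with Tf in the retina libraries. All 12 markers of that list (Rpe65, Best1, Rgr, Rrh, Ttr, Lrat, Rdh5, Stra6, Slc16a8, Ermn, Krt8 and Krt18) were measured and none was at 0. Their summed level ran from 207 to 382 CPM in young sham, 270 to 491 in young OVX, 307 to 773 in aged sham and 177 to 259 in aged OVX retinas. OVX minus sham was above 0 for 11 of the 12 markers in young retina (median log2 0.67) and below 0 for 11 of 12 in aged retina (median -0.88). The difference between the ages had a median of -1.59 over the markers, beside -1.53 for Tf. Melanocyte markers (5 of 6 in the table, none at 0) moved the same way: OVX minus sham was above 0 for 5 of 5 in young retina (median 0.75) and below 0 for 4 of 5 in aged retina (median -0.39), and the difference between the ages had a median of -1.11. Their summed level ran from 35.8 to 77.5 CPM in young sham, 58.4 to 128 in young OVX, 61.99 to 117 in aged sham and 45.3 to 76.7 in aged OVX retinas, and Tf had an r of 0.50 with their mean log2 CPM over 24 libraries. Rod markers had a median difference between the ages of 0.05 over 9 genes, and Müller glia markers 0.10 over 7. Rpe65 was at 21.4 ± 11.5 CPM in retina and 293.5 ± 94.1 in posterior eye (SD, n = 24), each on its own tissue's scale. In bulk tissue, fewer cells of a type, less RNA per cell and a different amount of adjoining tissue in the sample cannot be told apart.

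Library by library, Tf and the mean log2 CPM of the 12 markers had a Pearson r of 0.976 (Spearman rho 0.970) over the 24 retina libraries, and 0.965 without the 2 libraries farthest from the median. Within single groups r ran from 0.920 to 0.964 over 6 libraries each. In the posterior eye r was 0.938 (rho 0.925) over 24 libraries, 0.891 without the 2 farthest, and 0.680 to 0.969 within single groups. All genes of a library share its depth and tissue make-up, so these values are a description. On the log2 scale Tf exceeded the marker mean by 4.72 ± 0.120 in retina and by 4.72 ± 0.186 in posterior eye (SD, n = 24), although Tf itself differed 11.5-fold between the tissues. The equal value depends on the markers averaged. Single markers differed between the tissues by log2 0.21 to 5.36 (median 4.01), beside 3.53 for Tf. This log2 excess is read across libraries only, since it is not a comparison of levels per length. By group it averaged 4.72, 4.77, 4.72 and 4.67 in retina and 4.74, 4.83, 4.64 and 4.67 in posterior eye, in the same order of groups.

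**Figure D2:**
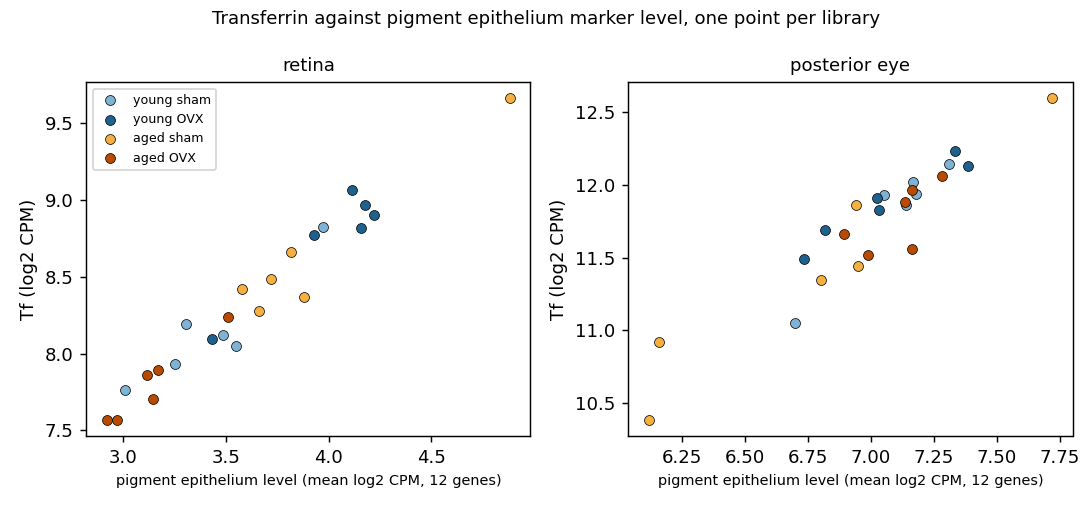
Tf as log2 CPM (y axis) against the mean log2 CPM of 12 pigment epithelium markers (x axis), 1 point per library coloured by group, in retina (left) and posterior eye (right). Points follow 1 line in each tissue (r = 0.976 and 0.938), and the 4 groups lie along it; the axes differ between panels and do not start at 0.

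With the marker level as a covariate in the fit, the retina difference of Tf between the ages was -0.04 ± 0.14. Without animals 12 and 16, the young OVX and aged sham retinas that stood apart from their groups, it was -1.35 ± 0.20 with no covariate. The part of the pigment epithelium in the Tf values was not tested beyond these numbers, and that of melanocytes was not tested.

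The genes whose log2 CPM followed Tf most closely over 24 retina libraries were Ttr (r = 0.984), the thyroid hormone carrier transthyretin, Rgr (0.970), an opsin of the pigment epithelium, Slc16a8 (0.969), its lactate transporter, Rdh5 (0.956), its retinol dehydrogenase, and Pon1 (0.933), a paraoxonase. The first 4 are in the marker list. In posterior eye they were Slc16a8 (0.957), Slc22a8 (0.936), an organic anion transporter, Clic6 (0.935), Lrat (0.933), which esterifies retinol, and Kcnj13 (0.926), a potassium channel. Slc16a8 and Lrat are in the list. No other iron gene tracked Tf this way: its r with the 7 other tested genes ran from -0.40 (Tfrc) to 0.11 (Ftl1) in retina and from -0.44 (Heph) to 0.42 (Cp) in posterior eye. The log2 CPM of Tf in an animal's retina and in its posterior eye had an r of -0.21 over 24 animals.

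In the posterior eye the retina pattern of Tf was not seen. Young sham ran from 2120 to 4537 CPM (median 3920) and young OVX from 2885 to 4822 (median 3743). Aged sham ran from 1334 to 6190 (median 2693) and aged OVX from 2934 to 4278 (median 3505). The groups overlapped throughout, and aged sham spread widest. The difference between the ages in the OVX change was 0.16 ± 0.37 (edgeR adjusted p = 1.00), with an interval of 2 standard errors from -0.58 to 0.89. The retina value chose Tf, so it is not set against this interval. The difference between tissues in this contrast was not tested. Averaged over both ages, OVX minus sham was 0.12 ± 0.18 (adjusted p = 0.976) in posterior eye and -0.15 ± 0.15 (adjusted p = 0.746) in retina. The difference between the tissues in that averaged change was 0.29 ± 0.24 (adjusted p = 1.00). Single animals moved these averages: without animal 16 the retina change was -0.0053 and the tissue difference 0.044, and without animal 13 the tissue difference was 0.47.

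All 8 tested genes differed between the tissues: Tf, Ftl1, Heph, Aco1 and Cp were higher in posterior eye, and Tfrc, Ireb2 and Slc11a2 higher in retina. Most genes did, since 93% of the 17153 genes tested passed, 47.8% higher and 45.2% lower in posterior eye, so passing is not particular to these genes. On the common scale of both tissues, Tf averaged 333 ± 137 CPM in retina and 3711 ± 1045 in posterior eye (SD, n = 24), 11.5-fold apart (log2 3.53 ± 0.13, edgeR adjusted p = 4.28e-27). It was higher in posterior eye in 24 of 24 animals. Beside it, all 12 pigment epithelium markers were higher in posterior eye, with a median log2 difference of 4.01.

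Tfrc, the uptake receptor, went the other way, with 78.0 ± 6.68 CPM in retina and 28.7 ± 9.12 in posterior eye. The fitted difference was -1.47 ± 0.08, 2.76-fold (edgeR adjusted p = 5.86e-21), and retina was higher in 24 of 24 animals. The ranges did not overlap (64.4 to 90.9 against 16.0 to 50.2 CPM), and the share of all genes without overlap is not given here. Slc11a2, the endosomal iron carrier, barely differed, at 78.8 ± 4.77 and 74.4 ± 5.33 CPM (-0.08 ± 0.03, adjusted p = 0.00859), and was higher in retina in 21 of 24 animals. Within the uptake genes, then, Tf mRNA was higher in posterior eye and that of its receptor in retina.

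Among storage and export genes, Ftl1 was at 0.813 ± 0.425 CPM in retina and 5.27 ± 1.46 in posterior eye (2.702 ± 0.15, adjusted p = 2.35e-21), subject to the limit on ferritin counts given above. Heph, the membrane-bound ferroxidase, was at 12.8 ± 2.15 and 54.5 ± 14.5 CPM, 4.28-fold apart (2.10 ± 0.09, adjusted p = 5.55e-25), with 24 of 24 animals higher in posterior eye. Cp, the other ferroxidase, differed less, at 94.3 ± 14.7 and 137 ± 26.8 CPM (0.53 ± 0.07, adjusted p = 1.56e-09), in 21 of 24 animals, with overlapping ranges. The iron sensors split: Aco1 was at 42.4 ± 3.24 and 91.8 ± 11.9 CPM (1.12 ± 0.05, adjusted p = 1.31e-25) in 24 of 24 animals, and Ireb2 at 17.0 ± 2.41 and 14.8 ± 2.14 CPM (-0.20 ± 0.06, adjusted p = 0.00222), higher in retina in 17 of 24.

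**Figure D3:**
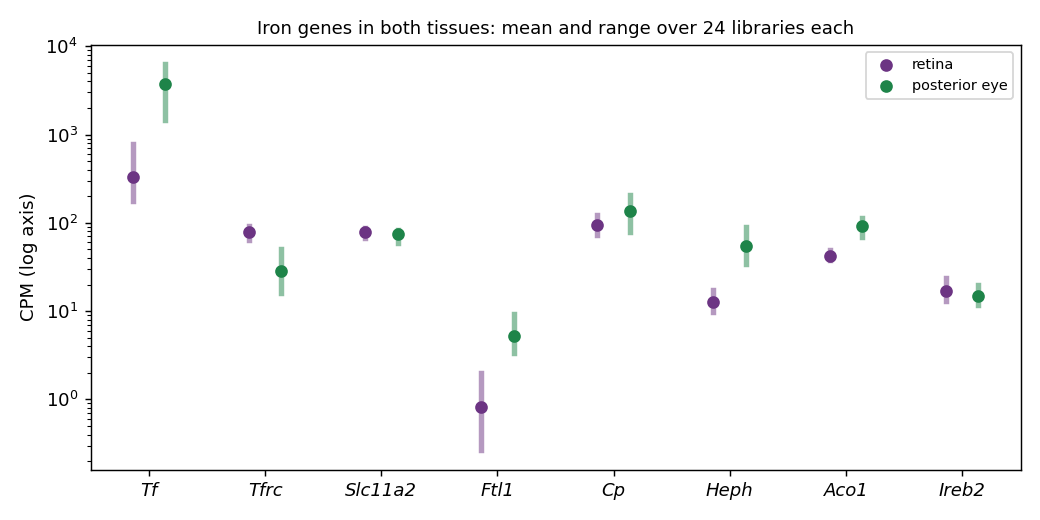
Level of the 8 tested iron genes in retina and posterior eye in CPM scaled over all 48 libraries (y axis, log); points are means and bars the lowest to highest of 24 libraries. Tf, Ftl1, Heph and Aco1 stand higher in posterior eye and Tfrc in retina with no overlap. The share of all genes without overlap is not given here, so the separation is a description only. Heights are not comparable between genes, since counts are not divided by gene length.

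Rod content of the posterior eye libraries moved with several of these genes. Over the 24 posterior eye libraries the mean log2 CPM of 9 rod markers, none at 0, had an r of 0.68 with Tfrc, -0.72 with Aco1, -0.51 with Heph and -0.50 with Ftl1. Tissue differences in the 12 animals whose posterior eye had the lower rod levels were -1.81 for Tfrc, 1.20 for Aco1 and 2.33 for Heph. They were 2.80 for Ftl1 and 3.38 for Tf. All 8 genes again passed, and the share of all genes that passed in these animals is not given here. That share was 93% in the fit of all animals. The genes most like Tfrc in posterior eye were Elovl4 (r = 0.879), which elongates very long chain fatty acids in photoreceptors, Golga7b (0.871), Gpld1 (0.861), Clstn3 (0.860) and Hrh3 (0.853), a histamine receptor, over 24 libraries.

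No iron gene passed for OVX or for age in the contrasts that were tested with edgeR. There, 0 of 8 passed for OVX in young posterior eye (0.0061% of all genes did, and 1 of the 8 had an unadjusted p under 0.05), in aged posterior eye (0%, 0 of the 8), over both ages (0%, 2) and for the difference between the ages (0%, 0). For age, 0 of 8 passed in posterior eye (0.0488% of all genes, 2 with an unadjusted p under 0.05). In retina 0 of 8 passed for OVX over both ages (0.0517% of all genes, 0) and 0 for age (0.736% of all genes, 2). The difference between tissues in the OVX change had 0 of 8 (0.00583% of all genes, 0). Over all genes tested, in the same order of contrasts, 6.24%, 2.57%, 5.72%, 2.97%, 8.9%, 10.8%, 12.9% and 4.94% had an unadjusted p under 0.05. DESeq2 also gave 0 in each of these except retina age, where it gave 1, Heph. Common variation between libraries was 12% of the level in retina and 33.4% in posterior eye, so changes of the same size were harder to detect in posterior eye.

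**Figure D4:**
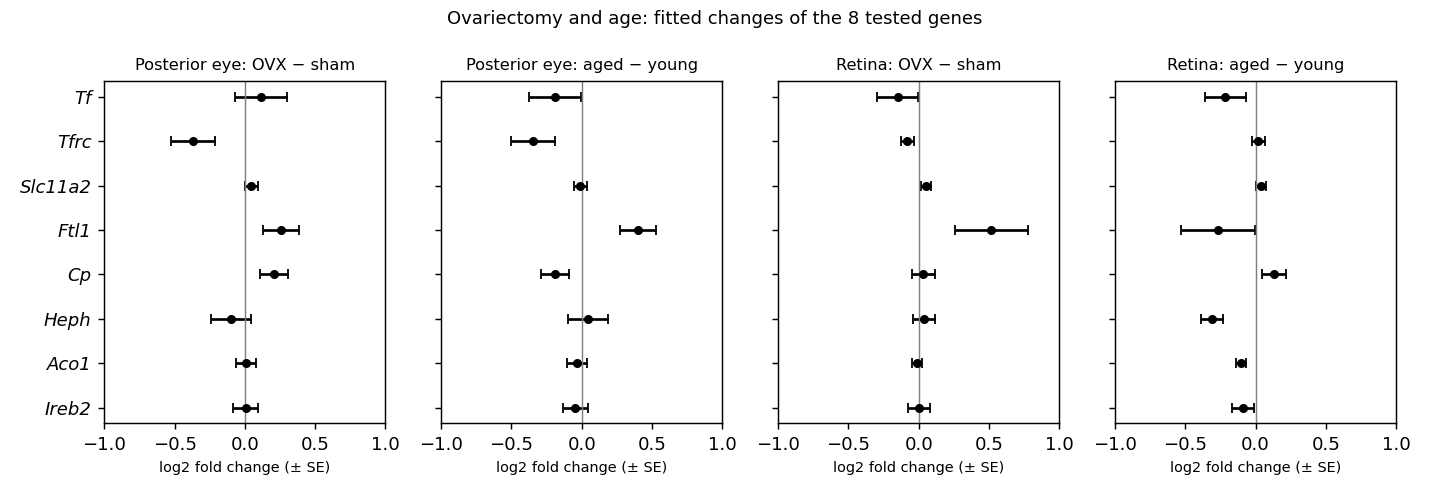
Fitted log2 fold changes with 1 standard error (x axis) of the 8 tested genes (rows) for OVX minus sham and aged minus young, each averaged over the other factor, in posterior eye and retina. All values lie between -0.37 and 0.52, and Heph in aged retina, at -0.31 ± 0.08, lies farthest from 0 in standard errors.

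The closest to a call was Heph in retina, lower in aged animals. It ran from 11.8 to 18.3 CPM in the 12 young retinas (median 14.7) and from 10.1 to 14.4 CPM in the 12 aged retinas (median 11.8). All 12 aged retinas were below the young median, while the ranges overlapped. The age change was -0.31 ± 0.08, 1.24-fold (edgeR adjusted p = 0.0525; DESeq2 adjusted p = 0.0120). It was -0.28 ± 0.11 in sham and -0.35 ± 0.11 in OVX retinas. Over the 24 retina libraries Heph had an r of -0.70 with the endothelial level, 0.67 with the Schwann cell level, 0.57 with the lens level and 0.55 with the Müller glia level. Lens markers (8 of 8, none at 0) summed to 4911 to 55650 CPM (median 36906) in young sham, 13775 to 57956 (33826) in young OVX, 3260 to 26075 (8738) in aged sham and 4346 to 35072 (28430) in aged OVX. Endothelial markers (4 of 5 in the table, Cldn5 at 0) summed to 399 to 502 CPM in young and 383 to 546 in aged retinas. The median over these markers of their largest CPM was 10.2, so the sum rested mostly on 1 of them. Across the tissues 3 were tested, with differences from log2 -1.88 to 4.50. The r used the mean log2 CPM of the 3 tested ones. This level averaged 4.60 ± 0.16 in young sham, 4.57 ± 0.12 in young OVX, 4.69 ± 0.13 in aged sham and 4.78 ± 0.16 in aged OVX (SD). Schwann markers (3 of 3, none at 0) summed to 47.4 to 140 CPM in young and 40.8 to 121 in aged retinas. Müller glia markers (7 of 7, none at 0) summed to 3799 to 4544 CPM in young and 3906 to 4681 in aged retinas. The part of these cell types in the Heph values was not tested. In posterior eye Heph had an age change of 0.04 ± 0.14 (edgeR adjusted p = 0.954). Aco1 in retina had an age change of -0.10 ± 0.04 (edgeR adjusted p = 0.200), with 11 of 12 aged retinas below the young median.

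Tfrc in posterior eye averaged 35.5 ± 9.85, 26.1 ± 8.19, 26.5 ± 6.09 and 21.6 ± 6.37 CPM (SD, n = 6), again from young sham to aged OVX. Within both ages 5 of 6 OVX libraries were below the sham median, and the ranges overlapped. OVX minus sham was -0.37 ± 0.16 (edgeR adjusted p = 0.803) and aged minus young -0.35 ± 0.16 (edgeR adjusted p = 0.533). Rod markers moved the same way, with all 9 below 0 for OVX over both ages (median log2 -0.43) and summed levels of 649 to 29050 CPM in young sham, 65.4 to 31003 in young OVX, 203 to 21921 in aged sham and 176 to 18146 in aged OVX. Sebaceous or meibomian gland markers (5 of 5, none at 0), with an r of 0.52 (rho 0.28) with Tfrc, summed to 28.5 to 2185 CPM in young sham, 33.6 to 155 in young OVX, 25.2 to 1864 in aged sham and 20.2 to 32.5 in aged OVX, and their part was not tested. Once the rod level entered as a covariate, Tfrc had an OVX change of -0.31 ± 0.12 (edgeR adjusted p = 0.461). In retina, Tfrc stayed between 67.5 and 96.1 CPM in all 24 libraries, and OVX minus sham was -0.08 ± 0.05 (edgeR adjusted p = 0.552).

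Cp in young posterior eye ran from 76.9 to 155 CPM in sham (median 128) and from 108 to 196 in OVX (median 163). The ranges overlapped and 4 of 6 OVX libraries were above every sham library. The change was 0.34 ± 0.14 (edgeR adjusted p = 0.725) in young and 0.07 ± 0.14 (edgeR adjusted p = 1.00) in aged posterior eye. Cp had an r of 0.87 with the melanocyte level over the 24 posterior eye libraries. Its r with the other marker lists ran from -0.28 (rod) to 0.62 (fibroblast), with 0.50 for Schwann cells and 0.44 for endothelium. Melanocyte markers (5 of 6 in the table, none at 0) summed to 1254 to 4006 CPM in young sham, 2018 to 4883 in young OVX, 1484 to 3376 in aged sham and 2223 to 3146 in aged OVX. The part of these cell types in the Cp values was not tested.

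**Figure D5:**
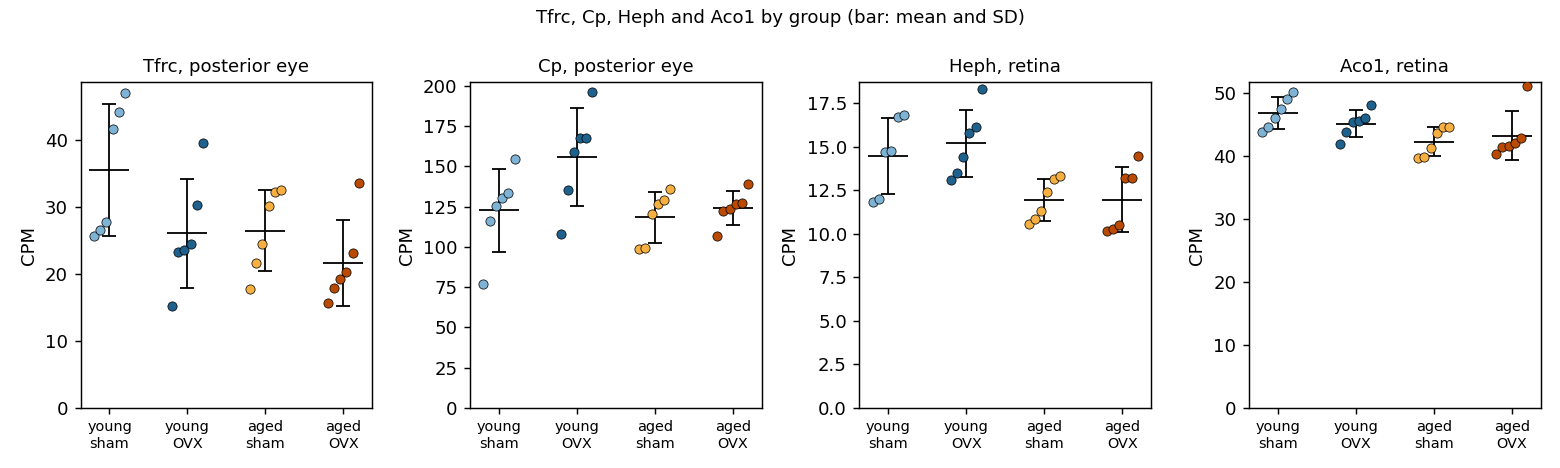
Level in CPM (y axis, from 0) of Tfrc and Cp in posterior eye and of Heph and Aco1 in retina, by group (x axis, 6 libraries each), 1 point per library with the mean and SD. In retina all 12 aged Heph libraries sit at 10.1 to 14.4 CPM, under the young median of 14.7 CPM, and the ranges of the groups overlap for all 4 genes.

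Ftl1 in posterior eye averaged 4.33 ± 0.905 CPM in young and 5.70 ± 1.42 in aged animals (SD, n = 12), with 11 of 12 aged libraries above the young median (0.40 ± 0.13, edgeR adjusted p = 0.345). In retina its OVX change was 0.84 ± 0.36 in young and 0.20 ± 0.38 in aged animals, on at most 66 counts per library. The genes most like Ftl1 were Serf2 (r = 0.747), Rps27 (0.747), Tomm20 (0.744), Txn1 (0.736) and Hist1h2bcl1 (0.736) in retina, and Ppia (0.768), Pomp (0.763), Pars2 (0.753), Rps9l1 (0.750) and Elob (0.742) in posterior eye. The remaining genes, Slc11a2 and Ireb2, had OVX changes near 0. Slc11a2 ran from 71.6 to 92.0 CPM in retina and from 57.8 to 79.6 in posterior eye, each on that tissue's own scale. Its OVX change over both ages was 0.05 ± 0.04 (edgeR adjusted p = 0.622) in retina and 0.05 ± 0.05 (edgeR adjusted p = 0.976) in posterior eye. Ireb2 had 0.00 ± 0.08 (edgeR adjusted p = 0.992) and 0.01 ± 0.09 (edgeR adjusted p = 0.993). In retina Ireb2 was followed most closely by Agps (r = 0.866), Relch (0.820), Edem3 (0.819), Fam168b (0.809) and Lancl1 (0.807).

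A wider list of 50 iron and haem gene symbols was read alongside, of which 48 were in the tables, and 43 were tested in retina and 45 in posterior eye. None passed for OVX or age in either tissue by edgeR. The share of the list with an unadjusted p under 0.05 was 20.9% for OVX and 11.6% for age in retina, over both ages or surgeries, beside 10.8% and 12.9% of all genes. In posterior eye it was 11.1% for OVX over both ages and 4.44% for age, beside 5.72% and 8.9%. Between the tissues 28 of 45 passed as higher and 15 as lower in posterior eye, beside 47.8% and 45.2% of all genes. The median log2 difference was 0.56, beside 0.05 over all genes tested. The 4 genes of the list with the smallest p were all higher in posterior eye. Bmp6, the signal that induces hepcidin, was at 2.09 ± 0.595 CPM in retina and 31.05 ± 3.93 in posterior eye (log2 3.91 ± 0.08). Steap4, a ferrireductase, was at 0.708 ± 0.364 and 101 ± 28 CPM (7.17 ± 0.15). Scara5, a ferritin receptor, was at 0.954 ± 0.421 and 121 ± 32.3 CPM (7.00 ± 0.17), and Cybrd1, another ferrireductase, at 4.12 ± 0.688 and 36.9 ± 8.31 CPM (3.16 ± 0.08). Fibroblast markers, 5 of 5 higher in posterior eye with a median log2 difference of 10.5, were also higher there, and their part was not tested.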

How the data were processed

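Whole-number read counts per gene, 1 table per tissue, were deposited by the authors. Libraries were prepared, per the labels' protocols, from 10 ng of total RNA with a SMART-Seq kit, which marks no strand as described, so reads of overlapping genes can mix, and paired 100-base reads were sequenced. STAR 2.7.3a, HTSeq, DESeq2 and Rnor_6.0 are named in the submitters' processing notes, while settings and annotation are not given in the sources at hand.

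Counts were fitted with edgeR 4.0.16 (R 4.3.3): TMM scaling, filterByExpr, 1 mean per group over the 24 libraries of a tissue (48 across tissues), a two-sided quasi-likelihood F test and Benjamini-Hochberg adjustment over all genes tested (15481 retina, 16401 posterior eye, 17153 both). A gene passed at an adjusted p under 0.05. Standard errors are approximate, the absolute log2 fold change over the square root of F. CPM are counts relative to the TMM-scaled total, on edgeR's standard scale. DESeq2 1.42.0, RLE scaling, no filter, marker covariates, leaving out each animal and an animal block were alternatives, and the fits were tested on simulated data. The labels give no batch or date.

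The 10 genes, the lists and the tests were chosen with earlier results of these data known. All 10 are reported, with values per group or library for those that passed and for Tf. From the wider iron list up to 4 genes by p are named, and for Tf and up to 2 others per tissue with the widest range, the 5 genes of highest Pearson r. Both libraries of an animal are paired by the animal number in their titles. Deviations from group means within an animal had correlations of -0.0597 to 0.245 (median 0.0592), 6 of 24 above 0.1.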

Additional observations from a re-analysis of the deposited data

Results flagged for a closer look

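The change of Tf with OVX differed between the ages in retina, by -1.53 on the log2 scale, with the young change above 0 and the aged change below 0. All 6 young OVX retinas were above the young sham median and all 6 aged OVX retinas below the aged sham median. The difference was not tested, since it chose the gene.

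In 5 of 64 sets of 6 libraries, 1 library stood apart from the other 5, where chance gives about 1 in 20. Tf in the retina of young OVX animal 12 was 274 CPM against 438 to 537 in the others. Tf in the retina of aged sham animal 16 was 811 CPM against 311 to 405. Tf in the posterior eye of young sham animal 6 was 2120 CPM against 3726 to 4537. Aco1 in the retina of aged OVX animal 19 was 51.1 CPM against 40.3 to 42.9, and in the posterior eye of young OVX animal 10 it was 66.7 CPM against 87.0 to 99.7.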

How the results depend on the processing

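The number of iron genes that passed stayed at 8 of 8 between tissues, and at 0 for OVX and age, under RLE scaling, no filter on low counts and DESeq2, with 1 exception: for age in retina DESeq2 gave 1, Heph. It also stayed at 0 for OVX and age within each tissue with the pigment epithelium covariate, and within posterior eye with the rod covariate. Neither covariate was run for the tissue comparison. Shares over all genes in these runs are not given here, and 93% of all genes passed between tissues in the main fit. For age in retina, leaving out each animal gave 0 to 1. The Heph adjusted p ran from 0.0343 to 0.104 over these runs and passed in 5 of 24, without animal 2, 3, 9, 13 or 22, with a change of -0.34 to -0.28.

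The retina difference of Tf between the ages was -0.041 once the pigment epithelium level was a covariate, and ran from -1.70 (without animal 5) to -1.24 (without animal 16) over single animals left out. In posterior eye, with that covariate, the Tf change with OVX in aged animals became -0.055 and the difference between the ages -0.15. Leaving out single animals gave -0.084 to 0.11 for the change in young animals and -0.00048 to 0.46 for the difference between the ages. None of these posterior eye values passed in any setting, and the cause was not tested. The choice to leave out animals 12 and 16, and to keep only the 12 animals of low rod level, was made after seeing the data.

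In the paired fit with the animal as a replicate block, 8 of 8 genes passed between tissues (Tf 3.52, Tfrc -1.50) and 0 for the difference in OVX change. This fit changed no call of these genes, and its share over all genes is not given here. Depth limits Ftl1 in retina, where libraries held 5 to 66 of its counts.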
